A study of Capra hircus with 27 samples.

Results

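The lung of goats living at 2000 m was compared with the lung of goats living at 600 m. The comparison rests on 6 RNA-seq libraries, 3 per altitude, and covers the genes whose mean FPKM over these 6 libraries exceeded 0.5. FPKM is a fragment count corrected for transcript length and for library depth. Of the 22131 genes in the expression table, 13895 (62.8%) met this rule. A further 3543 genes were detected at a mean of at most 0.5 FPKM and 4693 genes were listed at 0 in all 6 libraries. The filter was a convention on a continuous scale, with 111 genes between 0.5 and 0.55 FPKM and 123 between 0.45 and 0.5. The animals were domestic goats (Capra hircus) of about 3 years of age from indigenous populations, with Ya'an in Sichuan as the origin of the 600 m group and Zhaotong in Yunnan as that of the 2000 m group. No treatment, allele or induced hypoxia entered the design. Each altitude is 1 population, so altitude and population cannot be told apart. The whole series holds 27 libraries of heart, lung and skeletal muscle. Its 3000 m group (A'ba) served here to estimate the spread within groups and to describe where genes are expressed. Some 3000 m values and correlations are also given beside those of the compared groups. The study describes the 600 m and 3000 m animals as unrelated adult females, and the sex of the 2000 m animals was not given in the sources used here.

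The lung exchanges oxygen and carbon dioxide across a thin wall of alveolar epithelium and capillary endothelium, and it also carries airway epithelium, smooth muscle and a large resident population of immune cells. At altitude the inspired oxygen falls, and cells sense this through hypoxia-inducible transcription factors, which switch on genes for blood vessel growth, glycolysis and red cell production. Pulmonary arteries constrict under low oxygen, so the lung of highland mammals has long been studied for changes in vessels and in surfactant. The table identifies genes by annotation IDs alone. None (0) of the 22131 IDs matched the available table of goat gene names, so neither these pathways nor lung cell types could be examined by name, and the tissue label could not be checked against marker genes. The description therefore groups genes by level, by tissue of expression and by kind of ID, and names 4 genes by ID.

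The 6 libraries were of similar depth. Relative depth, estimated from the FPKM value of a single read among rarely detected genes, lay between 0.859 and 1.05 of the geometric mean at 600 m and between 0.908 and 1.16 at 2000 m, while the absolute depth is unknown. Among these rare genes the share that gave the common 1-read ratio between 2 libraries averaged 31.3% within 600 m, 37.0% within 2000 m and 13.8% between these altitudes (9.75% to 19.9%). Low shares also occurred within 1 altitude, since the 3000 m pairs averaged 19.0%. The part of this in the results below was not tested. The share of genes above 0.5 FPKM was 60.5%, 61.2% and 61.8% at 600 m and 62.1%, 62.4% and 62.9% at 2000 m. The groups did not overlap, and the difference in means of 1.28 percentage points gave the smallest p that 3 against 3 libraries allow (exact permutation test, two-sided, n = 3 per group, p = 0.1). The 10 most abundant genes held 13.3% of the summed FPKM in the 600 m libraries (SD 0.190) and 13.0% in the 2000 m libraries (SD 0.380, n = 3 each), a difference within the spread of the libraries (exact permutation test, two-sided, p = 0.3).

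At 600 m, replicate 1 stood apart from the other 2 replicates. Over the 13895 genes its log2(FPKM + 1) values correlated with those of the 2000 m libraries at a mean Pearson's r of 0.951, against 0.928 for replicate 2 and 0.916 for replicate 3. Its r with its own group was 0.948 and 0.938, whereas replicates 2 and 3 correlated at 0.976. The 2000 m libraries correlated with each other at 0.962 to 0.972. Correlations across genes are given as descriptions, since genes are not independent replicates. Replicate 1 was thus, on average, about as close to the 2000 m libraries as to its own group. It was also the shallowest of the 6 libraries, and the counts of genes by group are given with and without it.

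At 2000 m, 722 of the 13895 genes differed from 600 m, which is 5.20% of the genes tested (limma, Benjamini-Hochberg adjusted p at most 0.05). Of these, 316 rose (2.27% of the genes tested) and 406 fell (2.92%) at 2000 m. The genes that rose were mostly of low or moderate level, with a median of 4.95 FPKM at 600 m and 12.5 FPKM at 2000 m. The genes that fell were more abundant, with a median of 39.5 FPKM at 600 m and 19.9 FPKM at 2000 m. All 722 had 3 libraries of one altitude entirely above the 3 of the other, as had 35.9% of all genes tested (15.7% with higher and 20.2% with lower values at 2000 m). In bulk tissue, fewer cells of a type and less RNA per cell cannot be told apart.

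The changes were moderate in size. The median absolute log2 change was 1.03 for the genes that rose and 0.88 for those that fell, on the scale of log2(FPKM + 1), which makes the change of weakly expressed genes look smaller. At least a 2-fold change on this scale was seen for 170 of the 316 higher genes and for 129 of the 406 lower genes. At least a 4-fold change was seen for 23 and 9 genes, and the largest changes were 3.52 upwards and -3.72 downwards. The smallest change that passed was 0.51. Most of the evidence lay close to the threshold, since only 8 genes had an adjusted p of at most 0.02 and 484 of the 722 lay between 0.04 and 0.05, and 1721 further genes lay between 0.05 and 0.1 (limma).

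**Figure D1:**
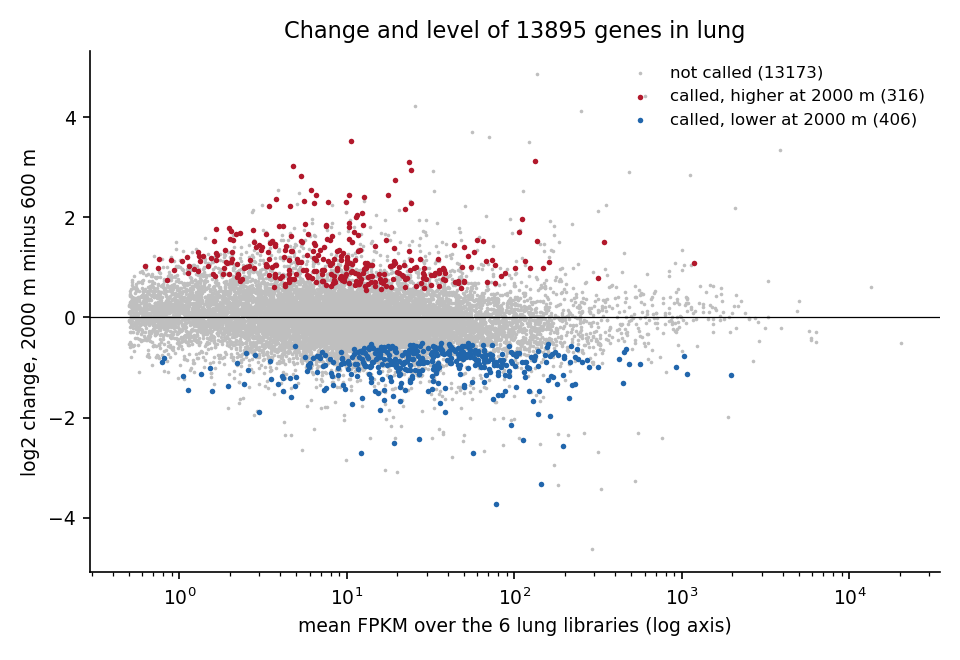
Each point is 1 of 13895 lung genes, with the mean FPKM over the 6 libraries on a log axis and the log2 change (2000 m minus 600 m, scale of log2(FPKM + 1)) on the vertical axis. The 316 genes called higher lie further to the left than the 406 called lower, and some of the largest changes were not called.

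The direction of change differed with the level of the gene. Among the 3331 genes with a mean above 1 and up to 5 FPKM, 92 rose and 23 fell. Among the 5428 genes above 5 and up to 20 FPKM, 145 rose and 116 fell. Above 20 and up to 100 FPKM, 61 of 3368 genes rose and 201 fell, and above 100 FPKM, 12 of 887 genes rose and 64 fell. The median log2 change over all tested genes of a level was 0.13 for the 881 genes of 0.5 to 1 FPKM. It fell to -0.15 for genes of 20 to 100 FPKM and was -0.11 above 100 FPKM. Of the 500 most abundant genes, 3 rose and 34 fell. Of the 10 most abundant, 0 were called by limma and 4 (40%) had altitudes that did not overlap, beside 35.9% of all genes tested.

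Median-of-ratios scaling divides each library by 1 factor. It therefore moves all levels in the same direction and could not test this order of levels, which remained. Quantile normalization gives every library the same distribution, which largely removes such an order by design, and the order was lost under it. After median-of-ratios scaling the share of called genes that were higher fell from 83.0% at 1 to 5 FPKM to 17.9% above 100 FPKM. Without 600 m replicate 1, 236 genes rose and 103 fell at 1 to 5 FPKM, 293 and 417 at 5 to 20 FPKM, 152 and 511 at 20 to 100 FPKM and 46 and 122 above 100 FPKM, so that the majority at 5 to 20 FPKM turned. After quantile normalization the share was 59.6% at 1 to 5 FPKM, 59.9% at 20 to 100 FPKM and 42.9% above 100 FPKM. Over all levels, genes that rose made up 43.8% of the calls with the deposited values. Median-of-ratios scaling raised this to 53.6% and quantile normalization to 61.3%, so the majority direction turned with the scaling.

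**Figure D2:**
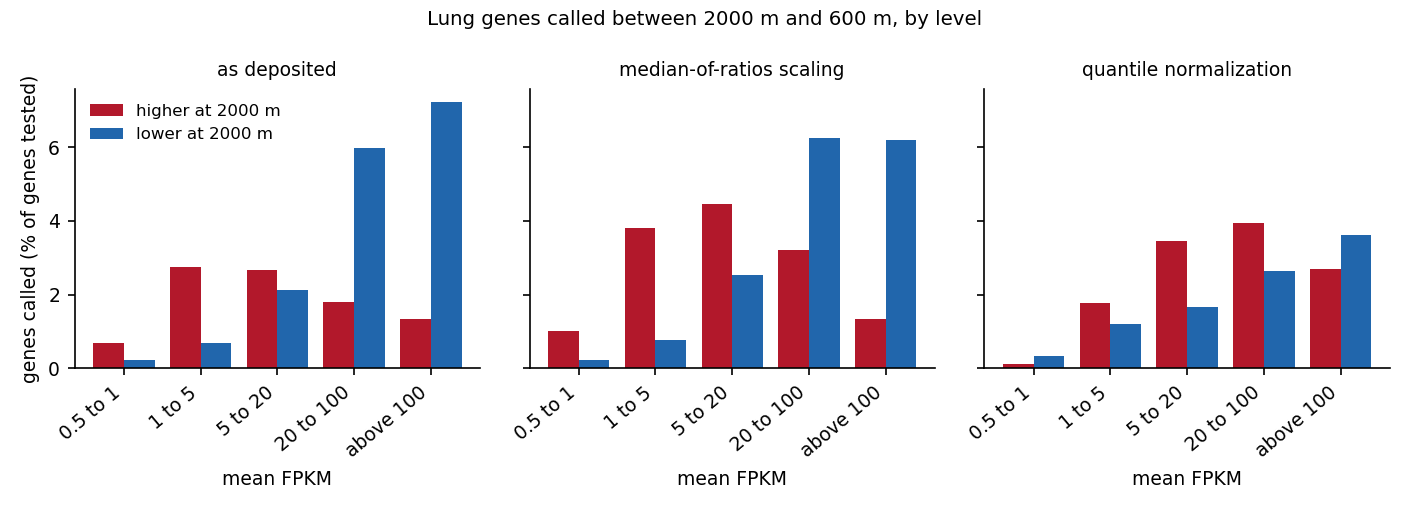
Bars give the percentage of tested lung genes called higher (red) or lower (blue) at 2000 m in each class of mean FPKM, for values as deposited and after 2 rescalings. As deposited, 7.22% of genes above 100 FPKM were called lower and 1.35% higher, and after quantile normalization 3.61% and 2.71%.

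Of the genes expressed mainly in lung, more rose than fell. They were taken from the 3000 m libraries, which are not among the 6 compared, as the 2661 genes whose lung FPKM was at least 4 times that in both heart and muscle (with 0.1 added to each). Of these, 128 rose (4.81%) and 52 fell (1.95%), and their median log2 change was 0.17, beside -0.05 for all genes tested. Of the other 11234 genes, 188 rose (1.67%) and 354 fell (3.15%), with a median of -0.08. The share of higher genes among the lung-biased genes called was 71.1% with deposited values, against 34.7% among the others. Scaling by the median of ratios gave 74.8% against 46.5%. Quantile normalization gave 77.6% against 55.6%, so that most of the other genes called were then higher as well (272 higher, 217 lower). The gap was smallest with the 6 compared libraries alone, at 63.3% against 50.4%. Without replicate 1 of the 600 m group, 335 lung-biased genes rose and 183 fell (64.7% higher), against 409 and 984 of the others (29.4%).

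Within classes of level, the lung-biased genes and the others differed most in their counts between 1 and 100 FPKM. Among genes of 1 to 5 FPKM, 44 of 865 lung-biased genes rose and 6 fell, while 48 of the 2466 others rose and 17 fell. Among genes of 5 to 20 FPKM, 58 of 836 lung-biased genes rose and 13 fell, while 87 of the 4592 others rose and 103 fell. Among genes of 20 to 100 FPKM, 20 of 515 lung-biased genes rose and 20 fell, while 41 of 2853 others rose and 181 fell. Above 100 FPKM the counts were alike, with 4 of 215 lung-biased genes higher and 13 lower beside 8 and 51 of 672 others, and at 0.5 to 1 FPKM 2 of 230 and 6 of 651 genes were called. With the 6 compared libraries alone, the share of calls that were higher was 71.4% for lung-biased genes of 5 to 20 FPKM and 74.4% for the others, and 77.8% and 85.7% at 1 to 5 FPKM. Without 600 m replicate 1, 32 lung-biased genes above 100 FPKM rose and 28 fell, the opposite majority, beside 14 and 94 of the others, and at 5 to 20 FPKM 125 rose and 60 fell, beside 168 and 357. Genes of at least 4-fold lower level in lung than in heart and muscle were few, with 9 of 305 higher and 10 lower. When the lung-biased genes were taken from the 600 m libraries instead, 109 of 2937 rose and 68 fell, and from the 2000 m libraries 133 of 2494 rose and 41 fell. These last counts use the compared libraries, so the choice of genes leans towards a fall in the former and towards a rise in the latter. The choice at 3000 m is not neutral either, because the 3000 m lungs correlated more with the 2000 m lungs (mean r 0.953) than with the 600 m lungs (mean r 0.930), and its counts were nearer to those of the 2000 m choice.

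The genes carry IDs of 3 kinds. Of the tested genes, 6246 have IDs that begin with GOAT_ENSP, 6561 with GOAT_ENSBTAP and 1088 with goat_GLEAN. The goat_GLEAN entries were detected least, since 24.4% of those in the table met the FPKM rule, against 74.4% and 70.7% for the GOAT_ENSP and GOAT_ENSBTAP entries. Of the 1088 tested goat_GLEAN genes, 49 rose (4.50%) and 20 fell (1.84%), whereas 122 (1.95%) rose and 189 (3.03%) fell among GOAT_ENSP genes, and 145 (2.21%) rose and 197 (3.00%) fell among GOAT_ENSBTAP genes. The goat_GLEAN genes were also of lower level, with a median of 4.70 FPKM against 10.7 and 10.9. Within 1 to 20 FPKM, 39 of 699 goat_GLEAN genes rose and 7 fell, compared with 93 and 64 of 3988 GOAT_ENSP genes. Without 600 m replicate 1, 95 goat_GLEAN genes rose and 54 fell, beside 312 and 508 GOAT_ENSP genes and 337 and 605 GOAT_ENSBTAP genes. After quantile normalization 72.1% of the called goat_GLEAN genes were higher, and 60.5% of the called GOAT_ENSP genes. Entries that share the same base ID, written with a suffix such as D2, can share reads, and 4 of the 190 tested entries of this kind rose and 4 fell.

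Of the 316 genes that rose, GOAT_ENSP00000371394 had the largest log2 change. In the 600 m libraries it was listed at 0 FPKM in replicates 1 and 2 and at 4.38 FPKM in replicate 3. In the 2000 m libraries it reached 27.1, 16.3 and 15.8 FPKM in replicates 1 to 3, so that all 3 lay above every 600 m library. The log2 change was 3.52 (SE 0.67, 95% interval 2.02 to 5.03, limma adjusted p = 0.0381) with 1 added to FPKM and 5.76 with 0.1 added, and no fold is given because of the values at 0. At 3000 m the gene lay between 7.68 and 27.9 FPKM. In heart it was listed at 0 in all 9 libraries, and in muscle it was above 0 in 1 of 9, at 2.78 FPKM. The call was lost when 2000 m replicate 1, 2 or 3 was left out (limma adjusted p = 0.0800, 0.120 and 0.102) and when 600 m replicate 2 was (limma adjusted p = 0.126), and the change stayed between 3.12 and 4.33 in all fits that left out 1 library. With the 6 compared libraries alone the call held (limma adjusted p = 0.0494), and without the FPKM filter it was lost (limma adjusted p = 0.0531).

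GOAT_ENSBTAP00000024282-D2 was the most abundant gene that rose at least 2-fold. It measured 1061, 659.8 and 587 FPKM in 600 m replicates 1 to 3 and 1306, 1687 and 1759 FPKM in 2000 m replicates 1 to 3. The groups did not overlap, and 600 m replicate 1 was the nearest to the 2000 m libraries. Its mean rose from 769 FPKM (SD 255) to 1584 FPKM (SD 243, n = 3 each), and the log2 change was 1.08 with an SE of 0.26 (95% interval 0.50 to 1.66, limma adjusted p = 0.0478). At 3000 m it averaged 1041 FPKM (SD 129, n = 3), a range that overlapped the 600 m libraries. The gene is strongly lung-biased, with group means of 10.3 to 12.8 FPKM in heart and 17.1 to 29.0 FPKM in muscle. Another entry with the same base ID measured 18.8 FPKM at 600 m and 23.1 FPKM at 2000 m and was not called (limma adjusted p = 0.347), and how reads were divided between these entries is unknown. The call was lost in each fit without a 2000 m or 3000 m replicate or without 600 m replicate 2 or 3, with limma adjusted p from 0.0526 (without 3000 m replicate 3) to 0.169 (without 600 m replicate 3), while without 600 m replicate 1 the change was 1.33 (limma adjusted p = 0.0122). It was also lost after median-of-ratios scaling (limma adjusted p = 0.0510) and quantile normalization (limma adjusted p = 0.0544). The same held with the 6 compared libraries alone (limma adjusted p = 0.0633) and without the FPKM filter (limma adjusted p = 0.0721).

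GOAT_ENSP00000369547 fell most. It measured 87.8, 280.3 and 68.0 FPKM in 600 m replicates 1 to 3 and 2.30, 19.0 and 10.4 FPKM in 2000 m replicates 1 to 3. Every 2000 m library was below the lowest 600 m library, although replicate 2 at 600 m was far above the other 2. The log2 change was -3.72 (SE 0.81, 95% interval -5.53 to -1.91, limma adjusted p = 0.0421). At 3000 m the gene lay between 15.4 and 76.1 FPKM, overlapping both other groups. In heart it was listed at 0 in all 9 libraries and in muscle it was above 0 in 1 library, at 5.20 FPKM. Without a library the change ranged from -4.29 to -2.99, and the call was lost without 2000 m replicate 1, 2 or 3 (limma adjusted p = 0.0863, 0.120 and 0.108), 600 m replicate 2 or 3 (limma adjusted p = 0.133 and 0.136) or 3000 m replicate 1 (limma adjusted p = 0.0521), and after quantile normalization (limma adjusted p = 0.0512). It was also lost with the 6 compared libraries alone (limma adjusted p = 0.0516) and without the FPKM filter (limma adjusted p = 0.0597).

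goat_GLEAN_10005503 was the most abundant gene that fell at least 2-fold. It measured 2912, 2975 and 2214 FPKM in 600 m replicates 1 to 3 and 1299.8, 946 and 1397 FPKM in 2000 m replicates 1 to 3, with no overlap. Its mean fell from 2700.2 FPKM (SD 422) to 1214 FPKM (SD 237, n = 3 each), and the log2 change was -1.16 with an SE of 0.26 (95% interval -1.73 to -0.59, limma adjusted p = 0.0436). Unlike the other 3 named genes it was abundant in every tissue, with 2418 FPKM in heart (SD 375, n = 3) and 1285 FPKM in muscle (SD 217, with 600 m replicates 1 and 2 as separate libraries) at 600 m. The same contrast gave a log2 change of -0.75 in heart (limma adjusted p = 0.0351) and -0.73 in muscle (limma adjusted p = 0.133), and the test of the difference from lung passed for neither (difference of -0.41, SE 0.33, adjusted p = 0.637 with heart, and -0.43, SE 0.35, adjusted p = 0.576 with muscle, limma). The call in lung was lost without 2000 m replicate 1, 2 or 3 (limma adjusted p = 0.0845, 0.124 and 0.103), 600 m replicate 2 or 3 (limma adjusted p = 0.140 and 0.138) or 3000 m replicate 2 (limma adjusted p = 0.0510), with changes of -1.30 to -0.99. It was also lost with the 6 compared libraries alone (limma adjusted p = 0.0521) and without the FPKM filter (limma adjusted p = 0.0707).

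**Figure D3:**
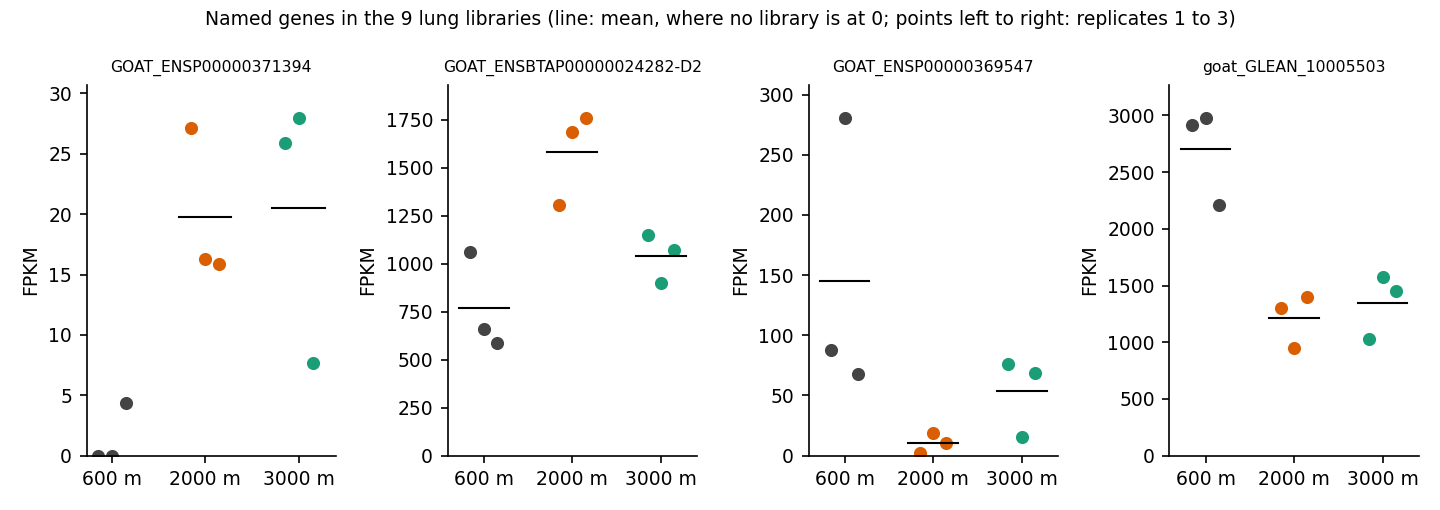
FPKM of the 4 named genes in the 9 lung libraries, by altitude, with a line at the group mean where no library is at 0. In each panel the 2000 m libraries lie entirely above or below the 600 m libraries. The 3000 m range overlaps the 2000 m range in 3 panels, and for GOAT_ENSBTAP00000024282-D2 it overlaps the 600 m range only.

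The number of genes called rested on single libraries. Without 600 m replicate 1 it rose from 722 to 1911, of which 744 were higher and 1167 lower. Leaving out 600 m replicate 2 gave 5 genes and replicate 3 gave 9, while 2000 m replicates 1, 2 and 3 gave 14, 8 and 1. Each of these fits still had 2738 to 3560 genes at an unadjusted p under 0.05, against 4065 with all libraries and 4445 when 600 m replicate 1 was left out. The 3000 m libraries enter only the estimate of the spread, and dropping each gave 365, 417 and 740 genes for replicates 1 to 3. With the 6 compared libraries alone, 212 genes passed, 117 higher and 95 lower.

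Leaving out a library moved the sizes of the changes less than the number of calls. The signs could not turn, since the called genes do not overlap between altitudes. Over the 722 genes the median of the smallest absolute log2 change in any of the 9 fits that left out a lung library was 0.80, beside 0.94 with all libraries, and for 192 genes it stayed at 1 or more. In the 6 fits that left out a compared library, 671 of the 722 genes were called in 1 fit, 32 in none and 1 in all 6. Replicate 1 of the 600 m group was the 600 m library nearest to the 2000 m mean for 60.1% of the genes that rose and 68.0% of those that fell, and for 46.9% of all genes tested. Its median distance from the 2000 m mean was 0.85 on the log2 scale for genes that rose, against 1.02 and 1.14 for replicates 2 and 3, and for genes that fell it was 0.69 against 0.90 and 0.98.

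**Figure D4:**
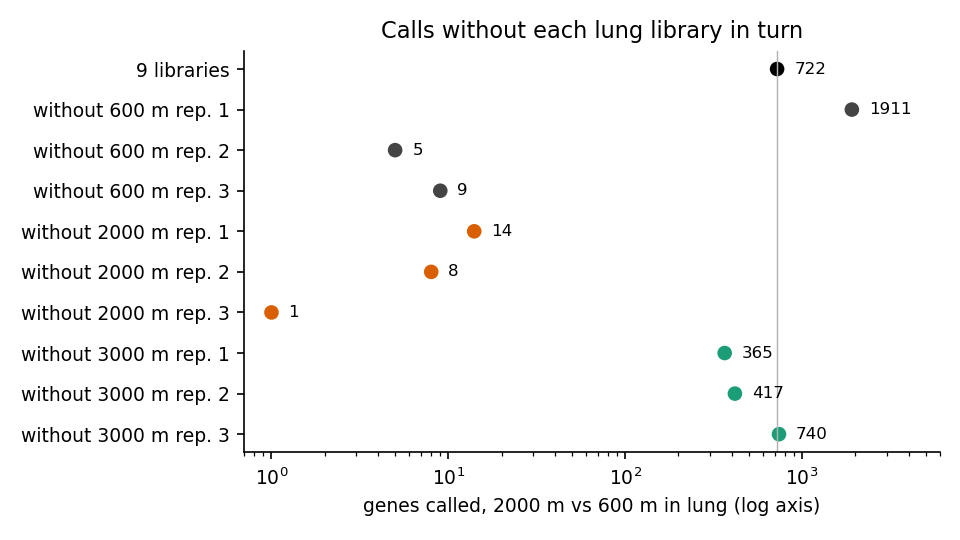
Number of lung genes called between 2000 m and 600 m (log axis) with all 9 lung libraries and without each in turn. The count was 1911 without 600 m replicate 1 and between 1 and 14 without any other compared library.

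Most genes called in lung had changes of the same sign in heart. Of the 722 genes, 644 also had a mean above 0.5 FPKM over the heart libraries of 600 m and 2000 m. The heart change was above 0 for 241 of the 253 genes that rose in lung and below 0 for 345 of the 391 that fell. Over all 11936 genes measured in both tissues the sign was shared by 69.5%, and over the 644 genes by 91.0%. In heart 336 of the 644 (52.2%) passed the test in the same direction and 3 in the opposite one, where 22.6% of the 11936 genes were called in heart in either direction. The median log2 change of the genes that rose was 1.01 in lung and 0.81 in heart, and that of the genes that fell was -0.87 in lung and -0.50 in heart, beside a median of 0.12 over all genes in heart. The heart and lung libraries are separate, but same-numbered ones deviated together from their group means (r of 0.157 to 0.454), and the study sampled several tissues from each animal of the 600 m and 3000 m groups, so the heart and lung values are not from independent animals. For the 2000 m animals the sources used here do not state this.

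The difference between tissues was tested directly as the lung change minus the heart change. This fit treated all libraries as independent, although same-numbered heart and lung libraries deviated together. The difference passed for 22 genes (0.184% of 11936, limma), of which 9 were called in lung. With altitude and replicate number together as a block, 33 genes passed. In 21 of the 22 the lung change lay below the heart change. The median change was -0.05 in lung over 13895 genes and 0.12 in heart over 11936 genes. The part of this offset in the direction of the 22 was not tested. In 18 of the 22 the gene was lower in lung and higher in heart at 2000 m. Both changes passed their own test, in opposite directions, for only 3. One of these 3, chosen after its values were seen, averaged 30.4 FPKM at 600 m and 11.2 FPKM at 2000 m in lung, and 3.30 and 8.16 FPKM in heart (difference of -2.51, SE 0.45, limma adjusted p = 0.0172). Another fell from 23.2 to 7.66 FPKM in lung and rose from 0.730 to 1.76 FPKM in heart (difference of -2.18, SE 0.35, limma adjusted p = 0.0136). The gene with the smallest adjusted p fell from 45.2 to 15.6 FPKM in lung (log2 change -1.48, limma adjusted p = 0.00524) and had 124 and 107 FPKM in heart (difference of -1.27, SE 0.18, limma adjusted p = 0.00589). The count of 22 dropped to 4 with median-of-ratios scaling and to 8 with quantile normalization, and it was 5 without lung 2000 m replicate 3, 8 without lung 600 m replicate 2 and 74 without lung 600 m replicate 1.

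Skeletal muscle shared the sign of the lung changes about as often. Of the 619 lung calls measured in muscle, the muscle change was above 0 for 200 of the 233 genes that rose and below 0 for 359 of the 386 that fell, in all 90.3% against 69.0% over the 11421 genes measured in both. In muscle 132 of the 619 (21.3%) passed in the same direction and 1 in the opposite one, where 6.07% of the 11421 genes were called in muscle. The median log2 change of the genes that rose was 0.99 in lung and 0.44 in muscle. That of the genes that fell was -0.87 in lung and -0.70 in muscle, beside a median of -0.14 over all genes in muscle. The lung change differed from the muscle change for 255 genes (2.23%, limma), of which 36 were called in lung. Of the 255, 124 were called in muscle and not in lung, and 27 in lung and not in muscle. One of these genes, picked after its values were seen, had 569 FPKM at 600 m and 73.6 FPKM at 2000 m in muscle, and 37.7 and 51.0 FPKM in lung (difference of 3.37, SE 0.36, limma adjusted p = 4.07e-05). Muscle at 600 m counted as 2 samples here, and the 255 became 104, 88 and 135 when lung 2000 m replicate 1, 2 or 3 was dropped and 86 and 136 when lung 600 m replicate 2 or 3 was.

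**Figure D5:**
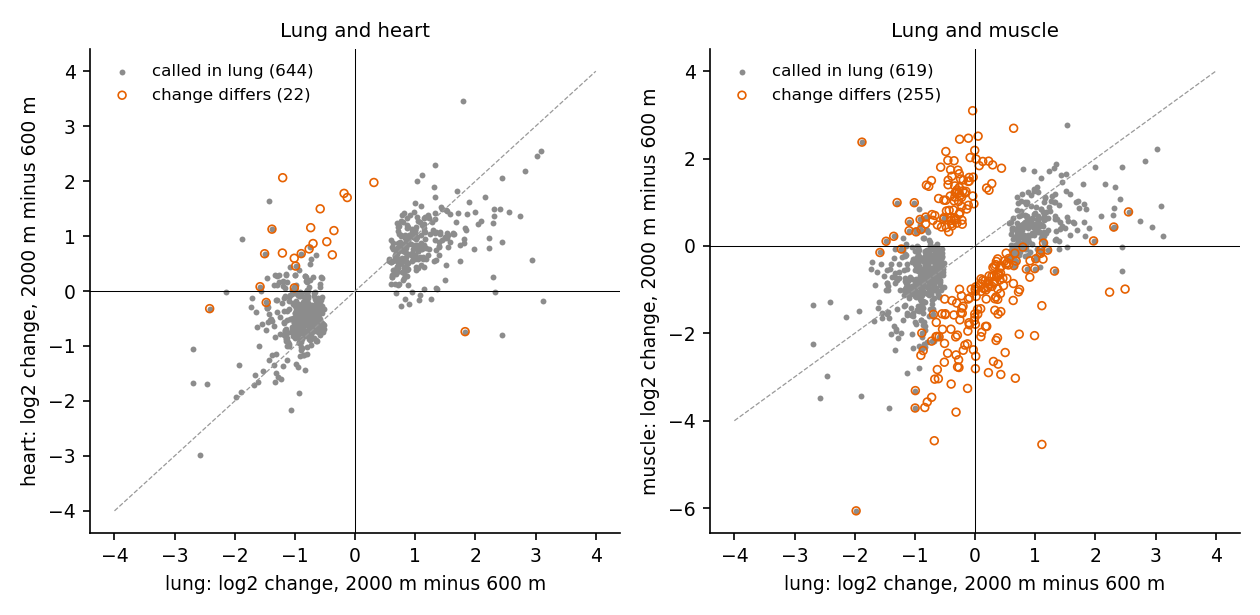
Log2 changes (2000 m minus 600 m) in lung against those in heart (left) and muscle (right). Grey points are genes called in lung (644 and 619), open circles are genes whose change differed between the tissues (22 and 255), and the dashed line marks equal changes, and 586 and 559 of the grey points have changes of the same sign in both tissues.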

How the data were processed

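Strand-specific libraries came from total RNA of each tissue. The authors aligned reads to the goat genome (CHIR_1.0) with TopHat2 2.0.11 and estimated FPKM with Cufflinks 2.2.1, and deposited log2 values of FPKM + 1 for 22131 genes, with 1 column per library. The methods describe this for 600 m and 3000 m animals, and per the labels the same tools served the 2000 m libraries. No filter had been applied.

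Undoing the logarithm and subtracting 1 gave back FPKM. Groups came from the labels. Genes whose 6 compared lung libraries averaged above 0.5 FPKM were fitted with limma (eBayes with trend) on log2(FPKM + 1) over the 9 lung libraries, two-sided, with Benjamini-Hochberg adjustment over all 13895 genes and a threshold of 0.05. The study's Cuffdiff needs files not used here. Replicates at 600 m and 3000 m are unrelated animals per the study's methods. For 2000 m the labels give separate samples only, whose spread may be technical. Differences between tissues were interaction contrasts over all 9 groups, fitted without a block for replicate number or animal. Over genes with recovered reads, muscle 600 m replicates 1 and 2 differed by less than the other pairs and were averaged. Whole read numbers were recovered with a tolerance of 0.2. The variance between muscle 600 m replicates 1 and 2 was 1.07 times that of sampling over 117 genes with recovered reads. It was 6.32 to 23.5 times for the other 11 pairs examined. In these 2 libraries GOAT_ENSBTAP00000024282-D2 measured 25.8 and 28.1 FPKM, and goat_GLEAN_10005503 measured 1039 and 1451 FPKM. Whether the latter difference exceeds sampling was not tested. Same-numbered heart and lung libraries deviated together from their group means (r of 0.157 to 0.454, other numbers -0.385 to 0.136). Same-numbered lung libraries of 600 m and 2000 m did not (-0.175 to -0.0631). For lung and muscle (-0.332 to 0.264) this differed with altitude. At 3000 m the same-numbered pairs had r of 0.154, 0.199 and 0.188, and all other pairs were negative. At 600 m the same-numbered pairs had 0.185, -0.0639 and 0.264 (other numbers -0.249 to 0.220). At 2000 m they had -0.0809, 0.0494 and -0.332 (other numbers -0.284 to 0.315). Relative depth used genes below 0.15 FPKM in both libraries of a pair and a window of 0.06 on the log2 ratio. Scripts were tested on simulated data.

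The 4 named genes are, in each direction, among genes called and not overlapping between altitudes, the one with the largest log2 change and the most abundant one changed at least 2-fold. The comparison, gene groups and rules were chosen with earlier results of these data known. Planned lists of marker and pathway genes could not be used without gene names. R 4.3.3, limma 3.58.1, Python 3.11.15, NumPy 2.4.6, pandas 2.3.3, SciPy 1.17.1 and matplotlib 3.10.9 were used.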

Additional observations from a re-analysis of the deposited data

Results flagged for a closer look

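The change between 2000 m and 600 m differed between lung and heart for 22 genes and between lung and muscle for 255 genes, by a test of the difference itself (limma, adjusted p at most 0.05). The median absolute difference was 1.66 on the log2 scale for the 22 and 1.46 for the 255. Against muscle, the lung change was the higher for 159 genes and the lower for 96, and the signs were opposite for 178. Groups of 3 libraries are too small for the outlier test used here. Replicate 1 at 600 m, which the report describes, was set apart by its correlations.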

How the results depend on the processing

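The 722 lung calls became 233 without a filter on low FPKM, 212 with the 6 compared libraries alone, 374 without a mean-variance trend and 2769 with all 27 libraries in the fit, where heart and muscle set part of the spread. Leaving out 1 lung library gave 1 to 1911 calls, and leaving out 600 m replicate 1 from the 6 compared libraries, chosen after seeing the data, gave 2156. With the replicate number as a block the count was 15, although the check of pairing gave no sign that these numbers pair the lung libraries. A pseudocount of 0.1, a mean FPKM above 5, the filter over 9 libraries, both rescalings and a robust fit gave 659 to 929. Of the 722 genes, 178 were called again with the 6 and 682 with the 27 libraries, and 722 had the same sign under both rescalings. In the settings that only change the filter, the spread or the libraries, the sign was fixed by the lack of overlap between altitudes. The 22 differences with heart became 4 after median-of-ratios scaling, 8 after quantile normalization and 5 to 74 without 1 lung library. They became 33 with altitude and replicate number together as a block. The 255 differences with muscle became 548 with that block, in which the averaged muscle sample has a level of its own and drops out, and 86 to 260 without 1 lung library. The difference in the FPKM share of the most abundant genes turned from -0.33 percentage points for 10 genes to 1.56 for 100 genes. The calls of the 4 named genes held in 7 to 15 of 21 alternatives. Read numbers were recovered for some genes only, so for most genes counting error cannot be set apart from other spread.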

Other observations

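Large changes were not always called. Of the 13173 genes that did not pass, 554 changed at least 2-fold on the log2(FPKM + 1) scale. Altitudes did not overlap for 307 of the 554, beside 4273 of the 13173 and 35.9% of all genes tested. Among the genes that did not pass, 14 changed at least 8-fold, with the largest at 4.85.

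Among the tested genes, 18 were listed at 0 in all 600 m lung libraries and 9 in all 2000 m lung libraries, and by limma 0 of either were called. The 2000 m libraries were all above 0.5 FPKM for 2 of the 18, and the 600 m libraries all for 1 of the 9. The highest mean in the other altitude was 16.3 FPKM at 2000 m and 4.56 FPKM at 600 m.

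The genes that rose held 0.621% to 0.825% of the FPKM of the 600 m libraries and 1.56% to 1.75% of that of the 2000 m libraries. The genes that fell held 5.36% to 6.19% at 600 m and 2.89% to 3.35% at 2000 m. These shares follow from the choice of the genes and are given for their size only.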
